A study of Monascus purpureus with 6 samples.

Results

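The taurine dioxygenase (TauD) family of *Monascus purpureus* was taken as the assembled transcripts (unigenes) whose Pfam annotation names the Taurine catabolism dioxygenase TauD domain and whose mean FPKM over the 6 libraries was at least 0.1. FPKM is the number of fragments per kilobase of transcript per 1000000 fragments. Of 24261 unigenes, 20581 had FPKM listed, and 14 carried the domain and passed this minimum. No unigene with the domain was lost to the minimum. The 14 unigenes came from 10 assembled genes. They were 360 to 3045 bases long, and for 11 of them the best protein match was a protein of *M. purpureus*. The strain was *M. purpureus* MP2022, a red pigment fungus of wild-type (WT) genotype in both groups. Mycelia in shaken fermentation medium received 4.0 g/L taurine (3 libraries) or none (the control, 3 libraries), and after 1 day their mRNA was sequenced and assembled without a reference genome. Nothing else is stated to differ between the groups. The study calls the samples triplicates but does not tie the sequenced libraries to separate cultures, so each p-value measures the spread between these libraries, which may be technical.

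TauD proteins are iron-dependent dioxygenases that use 2-oxoglutarate as the co-substrate. The enzyme that gave the family its name, known from *Escherichia coli*, oxidises taurine, a sulfonate, and releases sulfite, which can then serve as a sulfur source. Fungal relatives include the sulfonate dioxygenase Jlp1 of *Saccharomyces cerevisiae* and the xanthine dioxygenase XanA of *Aspergillus nidulans*. Trimethyllysine dioxygenase, which carries the same domain, takes the first step of carnitine synthesis. The KEGG annotation deposited with the table named 6 unigenes of 4 genes as sulfonate dioxygenase, 3 isoforms of 1 gene as xanthine dioxygenase and 1 unigene as trimethyllysine dioxygenase, and it gave no name to the other 4. These names rest on sequence similarity, and no enzyme activity was measured in these libraries.

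The depth of each library, estimated from the steps between its low FPKM values, was 18150000 to 18900000 fragments. Control replicate 2 stood apart from the other libraries. Its mean correlation with them across all tested unigenes was 0.91, against 0.928 to 0.933 for each of the other 5, and its FPKM summed to 797244, against 831359 to 865009. Libraries were assigned to groups by the column names of the deposited table. The study's supplementary lists and those columns give the comparison with opposite signs, so every direction below rests on the column names. Isoforms of 1 gene share fragments that the counting could have split between them, which makes single isoforms uncertain, and their sums are given as well. All differences are taurine minus control in log2(FPKM + 1), a scale that understates the change of low transcripts, and fewer cells that express a gene cannot be told apart from less RNA per cell.

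The mean FPKM of the 13 members above 0 in every library lay between 0.697 and 34.2. The median over all 14 was 1.52, against 2.45 for the 20380 unigenes tested. Trimethyllysine dioxygenase was the most abundant member in every library. It held 42.5% to 45.6% of the family's summed FPKM in the taurine libraries, 47.9% and 44.0% in control replicates 1 and 3, and 31.6% in control replicate 2. TRINITY_DN5926_c0_g1_i1-S3A, which has no KEGG name, came next in the taurine libraries with 22.3% to 23.1% of the sum, and had 12% to 23.2% in the control libraries. Of the 14 members, 10 had a mean FPKM of at least 1. The plot of FPKM by library shows these levels.

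**Figure D1:**
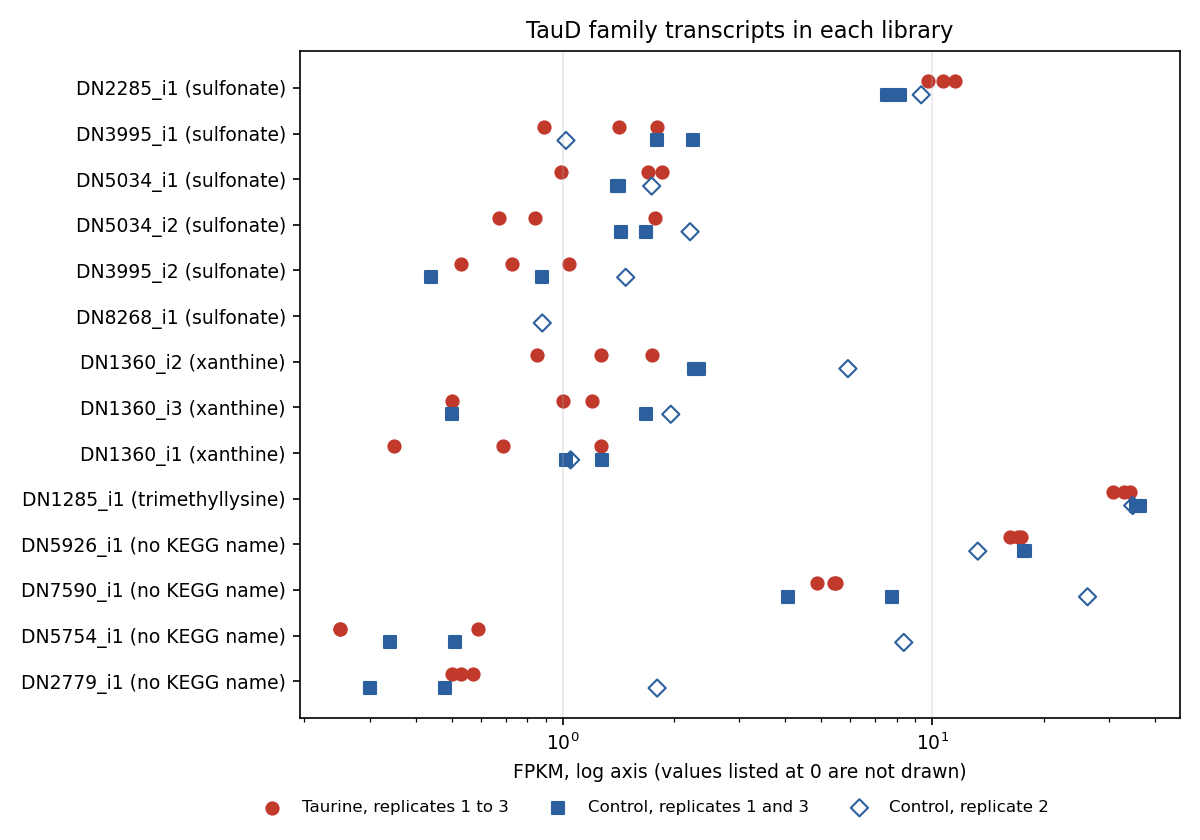
FPKM (log axis) of each TauD unigene in the 3 taurine libraries (red circles), control replicates 1 and 3 (blue squares) and control replicate 2 (open diamonds), with the KEGG name in brackets. Trimethyllysine dioxygenase DN1285 lies between 30.9 and 36.42 FPKM in all 6 libraries, whereas DN5754 reaches 8.37 FPKM in control replicate 2 and at most 0.59 elsewhere.

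No member passed the test between taurine and control. It was limma on log2(FPKM + 1), two-sided and adjusted over all 20380 unigenes by Benjamini-Hochberg, and the adjusted p was 0.999 for each of the 14. Of all tested unigenes 0.0393% were called at an adjusted p of at most 0.05 by limma. At an unadjusted p under 0.05, limma listed 2 of the 14, against 2.66% of all tested unigenes. Of these members 1 was higher with taurine, against 1.63% of all tested, and 1 was lower, against 1.03%. The groups of single unigenes did not overlap for 3 of the 14, against 6.41% of all tested. One of these, the sulfonate dioxygenase DN2285, was higher with taurine, against 3.78% of all tested in that direction. The other 2, a xanthine dioxygenase isoform and trimethyllysine dioxygenase, were lower, against 2.63%. Across the family 2 members had a difference above 0 and 12 below 0, while 45.8% of all tested unigenes were below 0. The 12 include DN8268, which passed the minimum only through control replicate 2, so its direction was fixed in advance. The median difference was -0.24 in the family and 0.022 over all tested. Without control replicate 2 it was -0.10 in the family and 0.03 over all, with 4 members above 0 and 9 below 0 of the 13 that could then be tested. For 7 members the 95% interval of the difference lay within -1 and 1, and for the other 7 it reached past -1, with 0 outside it only for the xanthine dioxygenase isoform DN1360_i2.

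**Figure D2:**
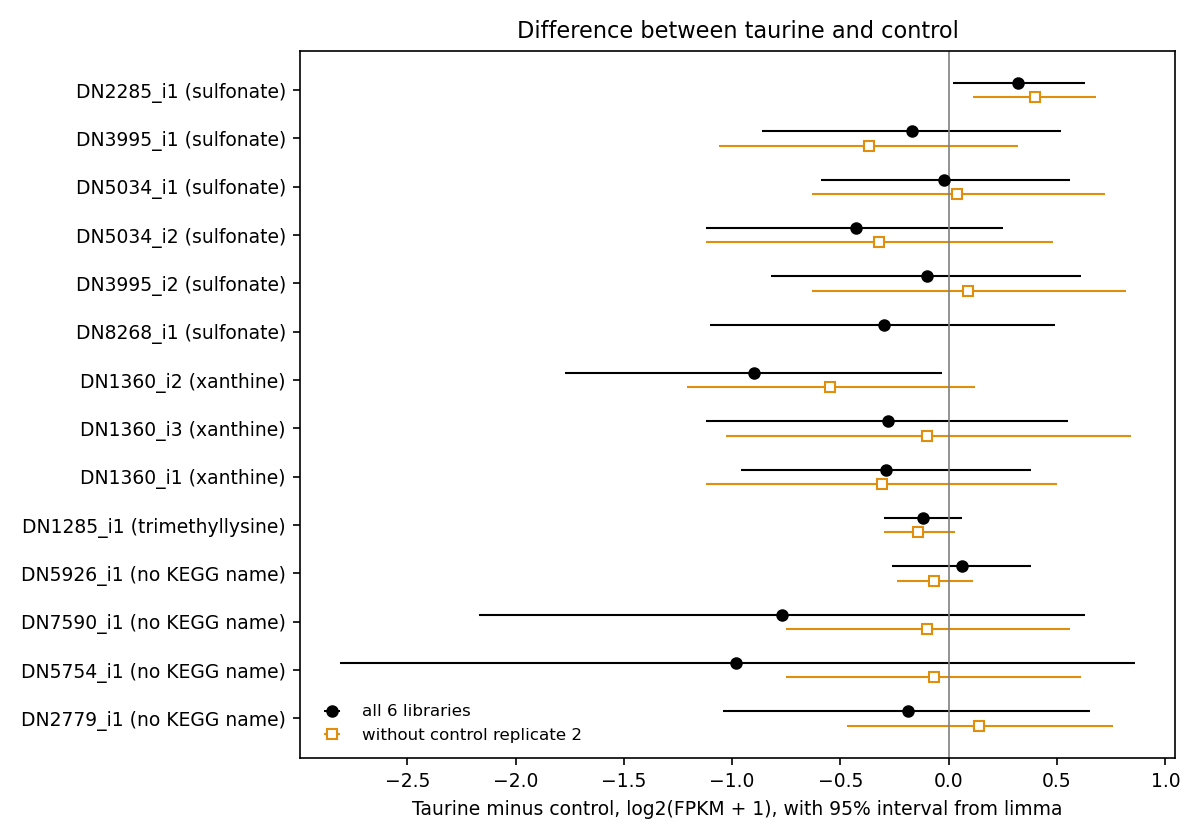
Taurine minus control in log2(FPKM + 1) for each TauD unigene, with the 95% interval from limma, over all 6 libraries (black circles) and without control replicate 2 (open orange squares). Only DN2285, at 0.32, and DN1360_i2, at -0.90, have black intervals that leave out 0, and DN5754, DN7590 and DN1360_i2 move furthest towards 0 without control replicate 2.

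Among the sulfonate dioxygenases with the TauD domain, TRINITY_DN2285_c0_g1_i1-S3A was the most abundant. It was the only one of them with higher values in every taurine library than in any control library. It is also the longest member, with 3045 bases. Its FPKM was 10.72, 9.72 and 11.55 in the taurine libraries, against 7.53, 9.33 and 8.18 in the control libraries. The groups were separated by the narrow step between taurine replicate 2 and control replicate 2. The means were 10.7 ± 0.916 FPKM with taurine and 8.35 ± 0.912 FPKM in the control (SD, n = 3 each), a ratio of 1.28. The difference was 0.32 on the log2 scale (SE 0.13, 95% interval 0.02 to 0.63), with an unadjusted p of 0.042 from limma. Leaving out each library in turn gave 0.26 to 0.40. The unadjusted limma p was then 0.015 without control replicate 2 and 0.044 without taurine replicate 2, but 0.10 without taurine replicate 1, 0.14 without taurine replicate 3, 0.11 without control replicate 1 and 0.10 without control replicate 3. The separation depended on the scale. After each library was rescaled to the same total, DN2285 stood at 12.73, 11.24 and 13.89 in the taurine libraries and at 8.72, 11.70 and 9.58 in the control libraries, so that the groups overlapped, and the unadjusted limma p was 0.077. Estimated fragments numbered 393 to 586 per library, so counting error was small for this transcript beside most other members.

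The other sulfonate dioxygenases were lower in abundance and did not share the direction of DN2285. For TRINITY_DN5034_c0_g1, whose closest nucleotide match is named an alpha-ketoglutarate-dependent taurine dioxygenase of *Aspergillus clavatus*, isoform 1 had 1.85, 1.70 and 0.99 FPKM in the taurine libraries, against 1.40, 1.74 and 1.42 FPKM in the control libraries. Isoform 2 had 0.84, 0.67 and 1.78 FPKM with taurine, against 1.44, 2.21 and 1.68 FPKM in the control. The isoforms traded places in taurine replicate 3, where isoform 2 held 64.3% of the gene, against 31.2% and 28.3% in the other taurine libraries and 50.7% to 55.9% in the control libraries. Summed over both, the gene had 2.69, 2.37 and 2.77 FPKM with taurine, against 2.84, 3.95 and 3.10 FPKM in the control. The summed values did not overlap, although each isoform's did. The difference of the sum was -0.24 (SE 0.18), with an unadjusted limma p of 0.22.

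TRINITY_DN3995_c0_g1 gave the same picture of unsteady isoforms and a steadier sum. Isoform 1 had 1.80, 0.89 and 1.42 FPKM with taurine, against 2.25, 1.02 and 1.80 FPKM in the control, and isoform 2 had 0.53, 1.04 and 0.73 FPKM with taurine, against 0.44, 1.48 and 0.88 FPKM in the control. Isoform 2 made up 53.9% of the gene in taurine replicate 2 and 59.2% in control replicate 2, and 16.4% to 34% in the other 4 libraries. The fragments behind single isoforms were few, at 15.9 to 79.3 per library. Their sum was 2.33, 1.93 and 2.15 FPKM in the taurine libraries and 2.69, 2.50 and 2.68 FPKM in the control libraries. All taurine sums lay below all control sums, with a difference of -0.21 (SE 0.17) and an unadjusted limma p of 0.27. The last sulfonate dioxygenase, TRINITY_DN8268_c0_g1_i1-C2A, is a fragment of 360 bases that was listed at 0 in every taurine library and in control replicates 1 and 3. Its 0.88 FPKM in control replicate 2 corresponds to about 0.815 estimated fragments, so it rests on roughly a single fragment and no fold is given.

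Set side by side, the sulfonate dioxygenases summed to 15.74, 14.02 and 16.47 FPKM with taurine and 13.06, 16.66 and 13.96 FPKM in the control, and these groups overlapped. Without DN2285 they summed to 5.02, 4.30 and 4.92 FPKM with taurine, against 5.53, 7.33 and 5.78 FPKM in the control. DN2285 lay above its control values, and the sum of the rest lay below. The member left out was the only sulfonate dioxygenase with a difference above 0, so these opposite sides partly follow from that choice. Within the rest, DN5034 isoform 1 had a difference of only -0.02. After rescaling, the groups of DN2285 overlapped. These sums are given as a description.

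The xanthine dioxygenase gene was the member gene with the lowest unadjusted p. In *A. nidulans* this enzyme converts xanthine to uric acid. TRINITY_DN1360_c0_g1 has 3 isoforms, which together had 3.04, 3.29 and 2.54 FPKM in the taurine libraries, against 4.04, 8.92 and 5.03 FPKM in the control libraries. Every taurine library was below every control library, and control replicate 2 was far above the other controls. The means were 2.96 ± 0.382 FPKM with taurine and 6.0 ± 2.58 FPKM in the control (SD, n = 3 each), a ratio of 0.49. That ratio includes control replicate 2, and the summed gene was not fitted without that library. The log2 difference was -0.77 (SE 0.28, 95% interval -1.43 to -0.10), with an unadjusted limma p of 0.031 and an adjusted limma p of 0.999. Isoform 2 carried most of it, with 1.27, 1.74 and 0.85 FPKM with taurine, against 2.26, 5.91 and 2.33 FPKM in the control. Its difference was -0.90 (SE 0.36), with an unadjusted limma p of 0.044, and it came to -0.55 (SE 0.26) with an unadjusted limma p of 0.09 without control replicate 2. The unadjusted limma p was also above 0.05 without each taurine replicate, at 0.093, 0.055 and 0.13 without replicates 1, 2 and 3. Isoforms 1 and 3 overlapped between the groups. Isoform 3 had 0.5, 1.2 and 1.0 FPKM with taurine, against 0.5, 1.96 and 1.68 FPKM in the control. Isoform 1 had 1.27, 0.35 and 0.69 FPKM with taurine, against 1.28, 1.05 and 1.02 FPKM in the control. Their differences were -0.28 (SE 0.35) and -0.29 (SE 0.28).

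Trimethyllysine dioxygenase, TRINITY_DN1285_c0_g1_i1-S2A, was slightly lower with taurine and the most precisely measured member. It had 32.92, 34.24 and 30.90 FPKM in the taurine libraries, against 36.42, 34.85 and 35.60 FPKM in the control libraries. The groups did not overlap, with taurine replicate 2 just under control replicate 2. The means were 32.7 ± 1.68 FPKM with taurine and 35.6 ± 0.785 FPKM in the control (SD, n = 3 each), a ratio of 0.92. The difference was -0.12 (SE 0.07, 95% interval -0.30 to 0.06), with an unadjusted limma p of 0.15, so a change larger than -0.30 lay outside the interval. The transcript ranked at the 85.6th percentile of tested unigenes by mean FPKM and had 696 to 845 estimated fragments per library.

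With isoforms summed, the groups did not overlap for 5 of the 10 TauD genes, against 6.11% of 16971 assembled genes. Taurine was higher in 1 of them, DN2285, against 3.79% of genes in that direction, and lower in 4, against 2.32%. Among genes of at least 500 bases and a mean FPKM of at least 1 the share was 5.73%, with 3.82% higher and 1.91% lower. The 5 were the TauD genes with a KEGG name, apart from the single-fragment DN8268. The split moved with the scale. After rescaling to a total of 1000000, 3 of the 10 genes had groups that did not overlap, all lower with taurine (DN3995, DN1360 and DN1285), against 6.01% of all genes, while DN2285 and DN5034 overlapped. At an unadjusted p under 0.05 limma listed 2 of the 10 genes, DN2285 and DN1360, against 2.46% of all genes, and the adjusted limma p was 0.999 for all 10.

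**Figure D3:**
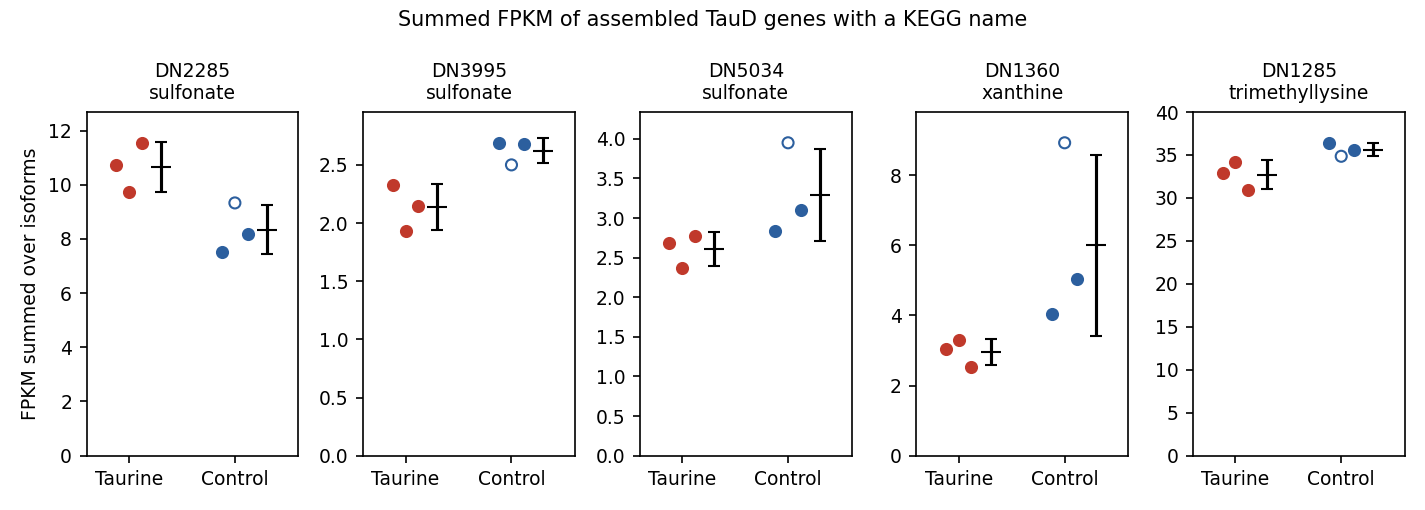
FPKM summed over the isoforms of the 5 TauD genes that have a KEGG name and were above 0 in the taurine libraries, with taurine left (red) and control right (blue, control replicate 2 open), each axis starting at 0 and bars at mean ± SD (n = 3). In each panel the groups do not overlap, with DN2285 at 10.7 ± 0.916 FPKM with taurine and 8.35 ± 0.912 FPKM in the control, and the other 4 lower with taurine.

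The 4 members without a KEGG name held the largest departures of a single library. TRINITY_DN5926_c0_g1_i1-S3A was steady in 5 libraries, with 17.08, 17.33 and 16.21 FPKM with taurine, against 17.67, 13.27 and 17.80 FPKM in the control, and control replicate 2 was the lowest. Its difference was 0.06 (SE 0.13), and -0.07 (SE 0.07) without that library. In the other 3, control replicate 2 was the highest library.

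TRINITY_DN5754_c0_g1_i1-C2A, the member that the study lists by identifier, is a transcript of 900 bases whose nearest nucleotide match is named a Clavaminate synthase-like protein. It had 0.25, 0.25 and 0.59 FPKM in the taurine libraries, against 0.34, 8.37 and 0.51 FPKM in the control libraries. Control replicate 2 was 14.2 times the highest other library, with about 89.8 estimated fragments, against 2.82 to 6.61 in the others, and the remaining 5 libraries overlapped. The difference was -0.98 (SE 0.76, 95% interval -2.81 to 0.86), with an unadjusted limma p of 0.24, and without control replicate 2 it was -0.07 (SE 0.27). TRINITY_DN7590_c0_g1_i1-C2A, also matched to a Clavaminate synthase-like protein, had 4.86, 5.48 and 5.41 FPKM with taurine, against 4.07, 26.30 and 7.78 FPKM in the control. Control replicate 2 was 3.38 times the highest other library, with an estimated 493 fragments, against 81.2 to 148. The difference was -0.77 (SE 0.58), with an unadjusted limma p of 0.23, and -0.10 (SE 0.26) without that library. TRINITY_DN2779_c0_g1_i1-C2A, at 0.53, 0.50 and 0.57 FPKM with taurine, against 0.48, 1.80 and 0.30 FPKM in the control, had a difference of -0.19 (SE 0.35), and of 0.14 (SE 0.24) without control replicate 2. For all 3 transcripts the mean of the control was thus set by 1 library.

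Control replicate 2 was the highest library for 8 of the 14 members, against 28.3% of all tested unigenes. Identifiers in this assembly end in the column name of a library, and 9 of the 14 members end in that of control replicate 2, against 23.0% of tested unigenes. Of these 9 members, 7 were highest in control replicate 2, against 61.3% of all tested unigenes with that ending. The 8 and the 7 both include DN8268, which passed the minimum only through that library. Of the other 5 members 1 was highest there, against 18.4% of the unigenes with other endings. What the ending records is not given in the sources used here, and its part in the values was not tested. The members together summed to 74.42, 75.11 and 72.69 FPKM in the taurine libraries, against 76.08, 110.17 and 80.98 FPKM in the control libraries. These sums did not overlap, but after rescaling to a total of 1000000 they were 88.40, 86.83 and 87.44 with taurine and 88.09, 138.19 and 94.82 in the control, where taurine replicate 1 passed control replicate 1.

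**Figure D4:**
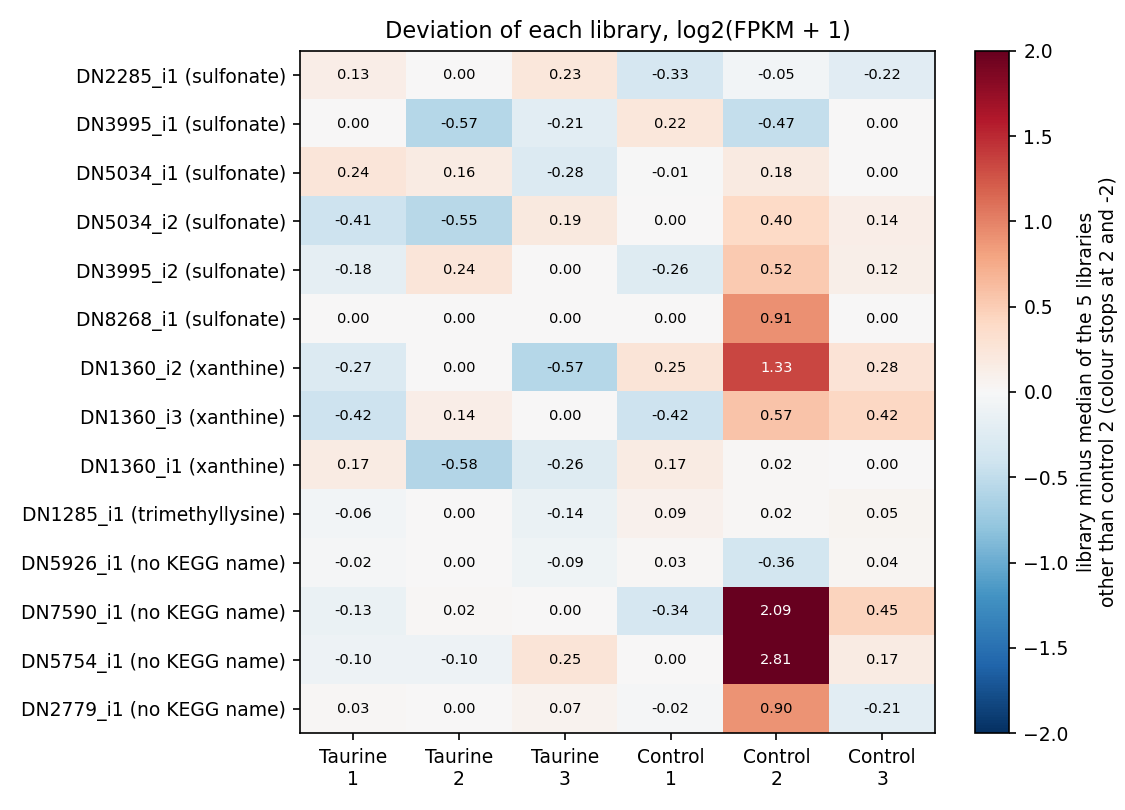
Difference of each library from the median of the 5 libraries other than control replicate 2, in log2(FPKM + 1), for each TauD unigene (rows) and library (columns, taurine left of control). The darkest cells lie in control replicate 2, at 2.81 for DN5754, 2.09 for DN7590 and 1.33 for DN1360_i2, and the taurine columns stay between -0.58 and 0.25.

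Genes of the neighbouring pathways were drawn from lists of annotation terms, and none of their members was called by limma at an adjusted p of at most 0.05. The list of 35 transcripts of sulfate and sulfite use covers steps before and after sulfite, the point where sulfur from a sulfonate would enter. At an unadjusted limma p under 0.05, 1 was higher and 0 lower, against 1.63% and 1.03% of all tested unigenes. The median difference was 0.086, and 0.026 without control replicate 2, against 0.022 and 0.03 over all tested. Control replicate 2 was the highest library for 15 of the 35, against 28.3% of all tested. The one with the lowest p was adenylylsulfate kinase TRINITY_DN168_c0_g1_i1-S3A, which phosphorylates activated sulfate, a step before sulfite. It had 76.37, 76.12 and 77.25 FPKM with taurine, against 65.15, 63.67 and 67.95 FPKM in the control. The groups did not overlap, and the difference was 0.22 (SE 0.06) with an unadjusted limma p of 0.013. In the list, 2 of the 35 had groups that did not overlap and were higher with taurine, against 3.78% of all tested unigenes. Cysteine synthase TRINITY_DN1818_c4_g1_i1-S2A, the most abundant of the list, averaged 226 ± 5.53 FPKM with taurine and 220.0 ± 36.9 FPKM in the control (SD, n = 3 each). The list of taurine and hypotaurine enzymes was drawn from the terms gamma-glutamyltranspeptidase, cysteine dioxygenase, cysteine sulfinic acid decarboxylase and glutamate decarboxylase. Its 17 transcripts had 0 past the same unadjusted limma p in either direction, against 2.66% of all tested unigenes. Their median was -0.105, and 0.001 without control replicate 2. Control replicate 2 was the highest library for 10 of them, against 28.3% of all tested. Their most abundant transcript, glutamate decarboxylase TRINITY_DN166_c0_g1_i3-S2A, averaged 40.8 ± 2.32 FPKM with taurine and 46.2 ± 6.92 FPKM in the control (SD, n = 3 each). The one with the lowest p, isoform 1 of that gene, had 7.30, 9.68 and 8.27 FPKM with taurine, against 11.78, 32.93 and 10.64 FPKM in the control.

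The 25 carnitine transcripts had 1 higher and 0 lower at an unadjusted limma p under 0.05, against 1.63% and 1.03% of all tested unigenes. Their median was -0.002, and -0.06 without control replicate 2. The transcript that was higher, TRINITY_DN2340_c0_g2_i2-S2A, had 6.26, 4.68 and 6.08 FPKM with taurine, against 2.54, 2.68 and 3.99 FPKM in the control. Its difference was 0.72 (SE 0.20), with an unadjusted limma p of 0.011. KEGG names it a carnitine carrier, but its Pfam domain is that of a methyltransferase. The most abundant carrier, TRINITY_DN3201_c0_g1_i1-C2A, averaged 68.2 ± 3.23 FPKM with taurine and 61.7 ± 4.96 FPKM in the control (SD, n = 3 each). The 13 purine breakdown transcripts had 0 past that threshold in either direction, against 2.66% of all tested unigenes, and a median of -0.014. Uricase TRINITY_DN846_c0_g1_i1-S3A, which oxidises the product of xanthine dioxygenase, had 161.97, 153.18 and 181.41 FPKM with taurine, against 128.42, 245.25 and 188.71 FPKM in the control, so the groups overlapped widely. The lowest p in that list belonged to xanthine dehydrogenase TRINITY_DN5276_c0_g2_i1-S1A, at 1.80, 1.92 and 1.15 FPKM with taurine, against 1.31, 0.73 and 0.00 FPKM in the control, and these overlapped. The 16 sulfatases and sulfite exporters had 0 past the threshold, against the same 2.66%, and a median of 0.071. Their most abundant transcript, TRINITY_DN5742_c0_g1_i1-S2A, averaged 54.2 ± 3.14 FPKM with taurine and 54.0 ± 3.37 FPKM in the control (SD, n = 3 each), and the one with the lowest p, TRINITY_DN1580_c0_g1_i6-S2A, had 0.95, 1.85 and 1.71 FPKM with taurine, against 1.76, 0.00 and 0.00 FPKM in the control.

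Enzymes of the related 2OG-Fe(II) oxygenase superfamily, which use the same co-substrate but lack the TauD domain, were centred on 0. Of 13 such transcripts 6 were above 0 and 7 below 0, with a median of -0.004. An unadjusted limma p under 0.05 was found for 0 of them, against 2.66% of all tested unigenes. Control replicate 2 was the highest library for 3 of the 13 (23.1%), against 28.3% of all tested unigenes. It was the highest for 8 of the 14 TauD members (57.1%), DN8268 among them. It was also the highest for 10 of the 17 taurine and hypotaurine transcripts (58.8%), which include glutamate decarboxylase isoforms. The differences between these shares were not tested. The most abundant of the 13, TRINITY_DN10175_c0_g1_i1-S1A, averaged 30.5 ± 2.51 FPKM with taurine and 28.5 ± 2.67 FPKM in the control (SD, n = 3 each). KEGG names it a lysyl-tRNA synthetase, although its Pfam domain is that of the 2OG-Fe(II) oxygenase superfamily. The one of the 13 with the lowest p, the alkB homolog TRINITY_DN2333_c0_g5_i1-S1A, had 3.96, 3.26 and 4.07 FPKM with taurine, against 4.24, 6.34 and 4.38 FPKM in the control. The median TauD difference of -0.24 was further from 0 than that of any of these 6 lists. Without control replicate 2 the TauD median was -0.10, and that of the sulfatases and sulfite exporters was as far from 0 at 0.106. This comparison of medians is a description without a test.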

How the data were processed

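RNA of 3 taurine and 3 control samples was sequenced on DNBSEQ and assembled de novo by the authors. The authors deposited the values as FPKM. The submitters' processing notes name Bowtie2 2.2.5, RSEM 1.2.8 and DESeq. The authors' own fold changes and p-values in the table were not used, and 0 columns of sample values were left aside.

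FPKM was not rescaled. Unigenes with a mean of at least 0.1 were tested as log2(FPKM + 1), pseudocount 1, with limma 3.58.1 (lmFit, eBayes with trend) in R 4.3.3, after the code was tested on simulated data. Non-overlap means that every library of a group lay above every library of the other. Isoforms were summed with pandas 2.3.3. Fragments were estimated from the step size of low FPKM in short unigenes, a rule chosen after the data were seen. For low values 62.4% to 67.2% came within 0.1 of a whole number, so these are estimates only, and no count test was run.

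Members, lists and the naming rule (every member, and from each list the most abundant transcript and that with the lowest p) were chosen with earlier results of these data known. The gene-level count of non-overlap was added after seeing the data. The supplied RefSeq table matched 0 members, and no sequence of a member was used here.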

Additional observations from a re-analysis of the deposited data

How the results depend on the processing

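Alternatives were a pseudocount of 0.1, no filter, a minimum mean FPKM of 1, rescaling to a total of 1000000, quantile normalization, sample quality weights, isoforms summed, members of at least 500 bases, a replicate block and leaving out each library. Of 501 alternative values 18 changed direction and 9 counts moved by over 1.5 times. No TauD member was called by limma under any of these. The family median ranged between -0.361 and -0.096 and stayed below 0. The number of members at an unadjusted limma p under 0.05 was 2, against 2.66% of all tested. It was 3 with quality weights, where the share of all tested was 10.1%, 1 after rescaling (2.62%) and 0 to 2 with 1 library left out (2.27% to 3.91%). None was left on removing either taurine replicate 1 or 3, and 1 on removing taurine replicate 2, control replicate 2 or control replicate 3. The number of genes whose groups did not overlap was 5, against 6.11% of all genes, but 3 after rescaling (6.01%) and 3 for single isoforms (6.41% of unigenes). With 1 library left out it was 5 to 6, while the share of all genes went up to 11.3% to 16.8%.

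Directions turned for transcripts whose main difference lay between -0.19 and 0.09. After rescaling DN5742 was at -0.01, and after quantile normalization at -0.02. With quality weights DN5034 isoform 1 was at 0.01, DN5926 at -0.06, DN2779 at 0.17, DN10175 at -0.01, DN1818 at -0.00254 and DN5742 at -0.06. With 1 library left out, the ranges were -0.12 to 0.14 for DN5034 isoform 1, -0.30 to 0.09 for DN3995 isoform 2, -0.07 to 0.13 for DN5926, -0.41 to 0.14 for DN2779, -0.08 to 0.16 for DN1818, -0.04 to 0.05 for DN5742 and -0.38 to 0.08 for DN846. All of these transcripts with a range across 0 turned without control replicate 2. DN5742 also turned without taurine replicate 1 or 3, and DN5034 isoform 1 without taurine replicate 3. The cause was not tested.

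With the replicate block 1 member had an unadjusted limma p under 0.05 (2.43% of all tested), DN1360 isoform 2 at 0.026, while DN2285 was at 0.093, and no call changed. Same-numbered libraries deviated together with correlations of -0.034 to -0.009, so the numbers are not read as pairs.

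With 3 libraries a group, and as few as 2.82 estimated fragments in a library for DN5754, small differences of the lower members were not detectable at this depth.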

Other observations

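The KEGG names of the family also fall on 4 unigenes without the TauD domain, of which 2 have FPKM listed, and both are named here after their values were seen. TRINITY_DN2231_c0_g2_i1-C3A, a piece of 433 bases, has the same best protein match as the sulfonate dioxygenase DN2285. It had 2.10, 2.39 and 3.46 FPKM in the taurine libraries, against 1.98, 0.78 and 1.92 FPKM in the control libraries. Taurine was higher, as for DN2285, whose groups overlapped after rescaling. The groups of DN2231 did not overlap, against 3.78% of all tested unigenes in that direction. The step between taurine replicate 1 and control replicate 1 was narrow, and no fragment estimate was made for this short piece. The difference was 0.53 (SE 0.29), with an unadjusted limma p of 0.116 and an adjusted limma p of 0.999. Whether both pieces belong to 1 transcript was not tested, so they are not read as independent measurements. TRINITY_DN10855_c0_g1_i1-C1A, of 1464 bases and named xanthine dioxygenase, had 0.00, 0.39 and 0.47 FPKM with taurine, against 0.93, 0.61 and 0.43 FPKM in the control, and these overlapped.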
